A study of Bos taurus with 17 samples.

Results

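Genes of the antiviral interferon response were described in bovine cumulus cells, the somatic cells that surround the oocyte in the ovarian follicle. The group was set by name as 9 genes: the RNA sensors DHX58, DDX58 and IFIH1, the effectors MX1, MX2, ISG15 and OAS1, and the transcription factors IRF1 and IRF7. A probe was taken when its gene name was one of these symbols, or when its description named the gene and its gene name was only a locus number. DHX58 was fixed as the probe that the array lists as LGP2. The rule found 8 probes for 8 genes among 21475 non-control probes, and IRF7 was not analysed here because no probe met the rule. The array gave 19810 distinct gene names or accessions in all. A valid probe is one found on 80% or more of the arrays at every stage, which held for 13865 probes and for 6 of these 8. IFIH1 and OAS1 did not reach that level.

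The 17 samples were measured on 1-colour Agilent arrays, 1 array per sample. NC1 cells came from 6 prepubertal calves aged 3 to 6 months and surrounded immature prophase I oocytes of poor developmental competence. C1 cells came from 6 adult cows and surrounded immature prophase I oocytes that are developmentally competent. Both were the compact cumulus of follicles of 3 to 6 mm, collected post mortem at a slaughterhouse. C2 cells were the expanded cumulus of mature metaphase II oocytes. They were aspirated by ovum pick up from follicles above 8 mm of 5 non-lactating Holstein cows aged 3 to 5 years. These cows had received progestagen implants, a porcine FSH and LH preparation (Stimufol) and prostaglandin F2α, the last given 60 h before collection. The age of the animals therefore cannot be told apart from the step from NC1 to C1. Hormone treatment, follicle size, and the place and way of collection (post mortem or by ovum pick up) cannot be told apart from the step from C1 to C2. C2 differs from NC1 in all of these and in age. The methods give breed and lactation for the C2 cows only. The labels name the tissue as ovarian follicles and the protocol names separated cumulus cells.

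RIG-I-like receptors are cytoplasmic helicases that bind viral double-stranded RNA. DDX58 (now named RIGI) and IFIH1 (MDA5) carry the domains that signal through the mitochondrial adaptor MAVS to induce interferon, whereas DHX58 (LGP2) lacks them and modulates the other two. Secreted interferons act through their receptors, JAK kinases and STAT factors to raise the interferon-stimulated genes. Among these, MX1 and MX2 are dynamin-like GTPases that block viral replication, ISG15 is a ubiquitin-like modifier, and OAS1 makes the oligoadenylates that activate RNase L. IRF1 and IRF7 are factors that act on interferon and interferon-stimulated promoters. In ruminants, ISG15 and the MX genes are also well known as responses of the uterus and blood cells to interferon tau of the early embryo.

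The oligonucleotides that measured these genes were given with the deposited values for 7 of the 8 probes, each 60 bases long. Those of ISG15 and IFIH1 are shown whole because the first had the widest spread between arrays and the second was dim at C2, and a stretch of 30 bases is shown for DHX58 because of its base composition. The capitals mark the polyadenylation signal letters AATAAA, and the other letters are in lower case.
ISG15: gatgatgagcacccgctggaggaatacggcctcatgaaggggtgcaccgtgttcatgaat
IFIH1: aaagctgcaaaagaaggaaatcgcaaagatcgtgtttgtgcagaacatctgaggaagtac
DHX58: cataaattaaaAATAAAgaagtggaaaacg
The DHX58 probe was the only 1 of the 7 to hold AATAAA on the printed strand, which 14.3% of the 15256 probes with a sequence did. Its GC content of 31.7% lay below the 5th percentile of those probes, which was 35%, and the ISG15 probe had the highest of the 7 at 55%. The MX1 and MX2 probes, made for paralogous genes, shared no run longer than 6 bases. No genome coordinates are given because the files name no genome build.

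Values are log2 scaled signals, the log2 of the background-corrected intensity of a probe minus the median over all non-control probes of the same array, so that 0 is the median probe of the array. They compare the arrays for 1 probe and do not rank different probes. The arrays had between 66.2% and 82.8% of probes well above background. FSHR, AMH and the other granulosa and cumulus markers were well above background on all arrays of a stage for 9 or 10 of 10 genes. Of the 9 valid ones, limma at an adjusted p under 0.01 called 5 lower at C2 than at C1 and 5 lower than at NC1. None was called higher, and 12.8% and 12.6% of all valid probes were lower. The median difference of the 9 was -1.49 and -1.51, with FSHR at -3.55 and AMH at -2.14 against C1. KITLG, the gene of this list outside the valid set, went the other way. Its mean was -3.60 at NC1, -4.09 at C1 and 0.94 at C2, and it was well above background on 2, 3 and 5 arrays. The 4 cumulus expansion genes measured (HAS2, PTGS2, TNFAIP6 and PTX3) were all higher at C2 than at C1, by a median of 4.87. The C2 arrays did not form 1 group. The SD of the difference between 2 arrays over the valid probes was 0.44 for C2 replicates 1 and 5 and 0.51 for replicates 3 and 4, and between 1.05 and 1.27 for the other pairs of C2 arrays. Calls of the group that change when these arrays are averaged in pairs, or when slide 6 is left out, are given beside their values. The averaging was run for the valid probes only, so not for IFIH1.

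At the C2 stage, 4 of the 6 valid genes (DHX58, MX1, MX2 and IRF1) were down-regulated in comparison to C1, and 3 (DHX58, MX2 and IRF1) in comparison to NC1. None was up-regulated. With slide 6 left out (described below), 2 were called against C1 (MX1 and IRF1), and with the close C2 replicates averaged 1 was called against NC1 (IRF1). Over all valid probes, limma at an adjusted p under 0.01 called 12.8% lower and 15.3% higher at C2 than at C1, and 12.6% lower and 15.5% higher at C2 than at NC1. The median log2 difference of the 6 genes was -1.31 against C1 and -1.32 against NC1, beside 0.02 and 0.11 over all valid probes. Scaling by the 75th percentile moved the median of all valid probes against C1 to -0.11, and under it the 6 genes kept their sign. The 2 comparisons share the C2 arrays. Between C1 and NC1 none of the 6 was called by limma or by the one-factor test of the study's methods, and none had an unadjusted p under 0.05, while 0.0577% of all valid probes were called and 9.84% had an unadjusted p under 0.05. In whole cumulus samples, fewer cells of a type and less RNA per cell cannot be told apart.

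**Figure D1:**
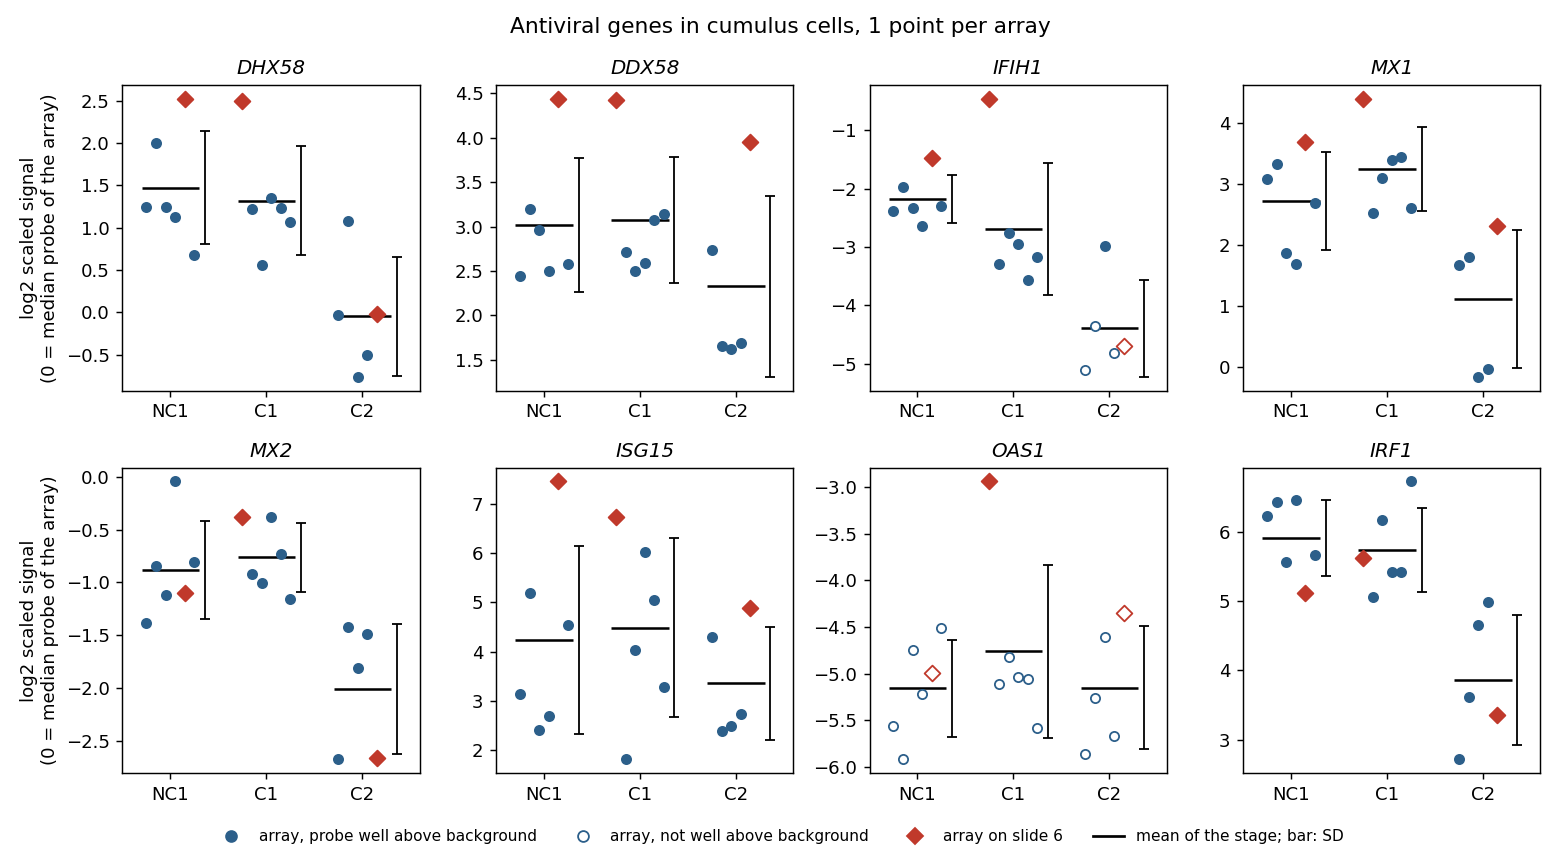
Log2 scaled signal (0 is the median probe of the array) of the 8 genes on each array at NC1 (n = 6), C1 (n = 6) and C2 (n = 5). Points are arrays, open where the probe was not well above background, diamonds are the arrays of slide 6, and lines and bars are the mean and SD of a stage. The C2 points of MX2 and IRF1 lie below all others, whereas those of ISG15 overlap both other stages and the slide 6 arrays are highest at each stage for DDX58, MX1 and ISG15.

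Among the sensors, DHX58, the regulator that lacks signalling domains, had a log2 scaled signal between 0.68 and 2.52 at NC1 (median 1.24) and between 0.56 and 2.49 at C1 (median 1.23). The 5 C2 arrays gave -0.04, 1.08, -0.76, -0.50 and -0.03 in replicates 1 to 5. C2 replicate 2 alone lay within the range of the other stages, and 4 of the 5 C2 arrays lay below every C1 and every NC1 array. The difference was -1.37 ± 0.37 (SE) against C1 (2.58-fold lower, adjusted p = 0.00685 in limma) and -1.52 ± 0.37 against NC1 (2.87-fold lower, adjusted p = 0.00332). The exact 2-sided permutation p was 0.013 and 0.00866, where 5 arrays against 6 can give no less than 0.00433. C1 and NC1 differed by -0.15 ± 0.36 (adjusted p = 0.939), with a 95% interval from -0.90 to 0.60, so that the order of the stages was set only for C2. The DHX58 probe was lower at C2 than at C1 on all 5 slides that held both, by -0.15 to -2.52. The call against C1 lay near the threshold. It was lost on leaving out any 1 of 8 arrays, with the one-factor test of the study's methods (adjusted p = 0.0154), with array weights (adjusted p = 0.0146), with a separate spread per stage (adjusted p = 0.0246) and with the normexp background correction (-1.08, adjusted p = 0.0102). Against NC1 it was lost with normexp, with array weights, with a separate spread and without C2 replicate 3 or 4. Leaving out slide 6, which held the highest NC1 and C1 arrays, gave -1.14 against C1 (adjusted p = 0.0168), and averaging the close C2 replicates gave -1.18 (adjusted p = 0.0481) and, against NC1, -1.33 (adjusted p = 0.0274).

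DDX58, the sensor of RNA with a 5′ triphosphate, was between 2.44 and 4.44 at NC1 (median 2.77) and between 2.50 and 4.43 at C1 (median 2.89). At C2 the arrays gave 2.74, 1.65, 1.62, 1.69 and 3.95. Replicates 2, 3 and 4 lay below all C1 and NC1 arrays, but replicates 1 and 5 lay within their range. The difference of -0.74 ± 0.45 against C1 did not pass the test (adjusted p = 0.203, 95% interval -1.70 to 0.21), nor did that of -0.69 against NC1 (adjusted p = 0.241). Single arrays moved the first, to -0.47 without C1 replicate 1 and to -1.15 without C2 replicate 5, and the second to -0.41 without NC1 replicate 5 and -1.10 without C2 replicate 5. On each slide that it shared with C1 the C2 array was the lower, at -0.40 to -1.42, and a fit with the slide as a block gave -0.83 with an adjusted p of 0.0121, above the threshold. Against NC1 the C2 array was the lower on 4 of 5 slides, with differences from -1.55 to 0.30.

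IFIH1, the sensor of long double-stranded RNA, was well above background on 6 of 6 NC1 and 6 of 6 C1 arrays but on 1 of 5 at C2. Its log2 scaled signal ran from -2.64 to -1.47 at NC1 (median -2.32) and from -3.56 to -0.46 at C1 (median -3.06). At C2 it was -5.11, -4.36, -2.98, -4.82 and -4.70, and replicate 3 was the 1 array above background. All C2 arrays lay below all NC1 arrays, and 4 of 5 lay below all C1 arrays. A full separation below NC1 was found for 10.3% of the valid probes, a set without IFIH1. IFIH1 entered a test only through NC1 and C1, among the 16542 probes present in at least 1 stage, of which 13.5% were called lower against C1, 13.1% lower against NC1 and 0.115% in either direction between C1 and NC1, and it is not counted with the valid genes. The measured difference of C2 from C1 was -1.70 ± 0.47 (adjusted p = 0.00771) and that from NC1 -2.21 ± 0.47 (adjusted p = 0.0011), but with 4 of 5 C2 values not above background their size is not firm. With the normexp background correction the 2 differences were -0.19 and -0.48 (adjusted p = 0.558 and 0.0904). Leaving out any 1 of 10 arrays also took the difference from C1 past the threshold of 0.01. Without slide 6, the first difference was -1.17 (adjusted p = 0.016) and the second -1.99 (adjusted p = 0.000408).

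Among the effectors, MX1 was between 1.68 and 3.70 at NC1 (median 2.88), and between 2.52 and 4.41 at C1 (median 3.26). Its C2 arrays gave 1.67, 1.80, -0.17, -0.04 and 2.32. All C2 arrays lay below all C1 arrays, a separation that 11% of valid probes showed in that direction, and 3 of 5 lay below all NC1 arrays. MX1 had the largest difference of the 6 valid genes against C1, -2.13 ± 0.48 or 4.39-fold lower (adjusted p = 0.00167, exact permutation p = 0.00433, the smallest possible). Against NC1 it was -1.61 ± 0.48 (adjusted p = 0.0121), just short of the threshold, and with the slide as a block -1.69 (adjusted p = 0.00124) or with the scan day as a block -1.73 (adjusted p = 0.000557). It also passed without slide 6 (-1.72, adjusted p = 0.00781). C1 and NC1 did not differ beyond their spread (0.52 ± 0.46).

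MX2, the paralogue of MX1, was between -1.38 and -0.05 at NC1 (median -0.97) and between -1.15 and -0.38 at C1 (median -0.83). At C2 it was -2.67, -1.42, -1.81, -1.49 and -2.66, lower on every array than on any array of the other stages. A separation in that direction was found for 11% of valid probes against C1 and 10.3% against NC1. The differences were -1.25 ± 0.28 (2.37-fold, adjusted p = 0.00143) and -1.13 ± 0.28 (2.18-fold, adjusted p = 0.00324). The normexp correction moved them to -0.49 (adjusted p = 0.0362) and -0.56 (adjusted p = 0.0157). Without slide 6 they were -1.01 and -1.01 (adjusted p = 0.0162 and 0.0163). With the close C2 replicates averaged, the difference from NC1 was -1.03 (adjusted p = 0.0166).

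ISG15 had the widest range between animals of 1 stage. It was 3.14, 5.20, 2.42, 2.70, 7.46 and 4.54 in NC1 replicates 1 to 6. In C1 it was 6.74, 1.82, 4.04, 6.02, 5.05 and 3.28, and in C2 4.30, 2.40, 2.49, 2.73 and 4.88. The SD of 1.91 at NC1 and 1.82 at C1 were each more than the difference between any 2 stage means. No stage was separated, and the differences of -1.13 ± 0.91 against C1 (adjusted p = 0.34, 95% interval -3.03 to 0.77) and -0.88 ± 0.91 against NC1 (adjusted p = 0.468, 95% interval -2.79 to 1.02) did not pass the test. These intervals still allow a decrease larger than that of MX1. The values rested on single arrays, with -0.68 against C1 without C1 replicate 1 and -0.24 against NC1 without NC1 replicate 5.

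OAS1 was well above background on 1 of 17 arrays, C1 replicate 1, where it was -2.94, while the other arrays lay between -5.92 and -4.35. Since both groups of each comparison were at or near background, no fold is given. Further probes of the 2′-5′ oligoadenylate synthetase family were as dim, with OAS2 on 1 C1 and 1 C2 array and OASL on no array.

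IRF1, a factor first known for binding the interferon beta promoter, was between 5.12 and 6.46 at NC1 (median 5.95) and between 5.05 and 6.73 at C1 (median 5.52). The C2 arrays gave 2.72, 3.62, 4.66, 4.99 and 3.35, all below every array of the other stages. Such a separation was found for 11% of valid probes against C1 and 10.3% against NC1. The decrease was -1.87 ± 0.39 against C1 (3.66-fold, adjusted p = 0.000864) and -2.05 ± 0.39 against NC1 (4.13-fold, adjusted p = 0.000398), with an exact permutation p of 0.00433 in both, the smallest possible. IRF1 passed the threshold in both comparisons under all alternatives tried. Its size differed between scan days. It was -2.70 on the first day and -0.73 on the second against C1, and -2.70 and -1.07 against NC1.

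Within C2, the 3 arrays of the first scan day and the 2 of the second (replicates 3 and 4) did not overlap for DHX58, MX1 or IRF1. For DHX58 and MX1 the first day was the higher, by 0.97 and 2.03, and for IRF1 it was the lower, by 1.59. This was common at C2, where 47% of valid probes did not overlap between the days, beside 7.05% at NC1 and 4.56% at C1. Replicates 3 and 4 are also 1 of the 2 close pairs of C2 arrays. At NC1 the days did not overlap either for DHX58 and MX1, with the first day again the higher, by 0.91 and 1.29, and at C1 they did not overlap for DDX58 (higher by 0.95). The part of the scan day and of the animals in these splits was not tested.

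**Figure D2:**
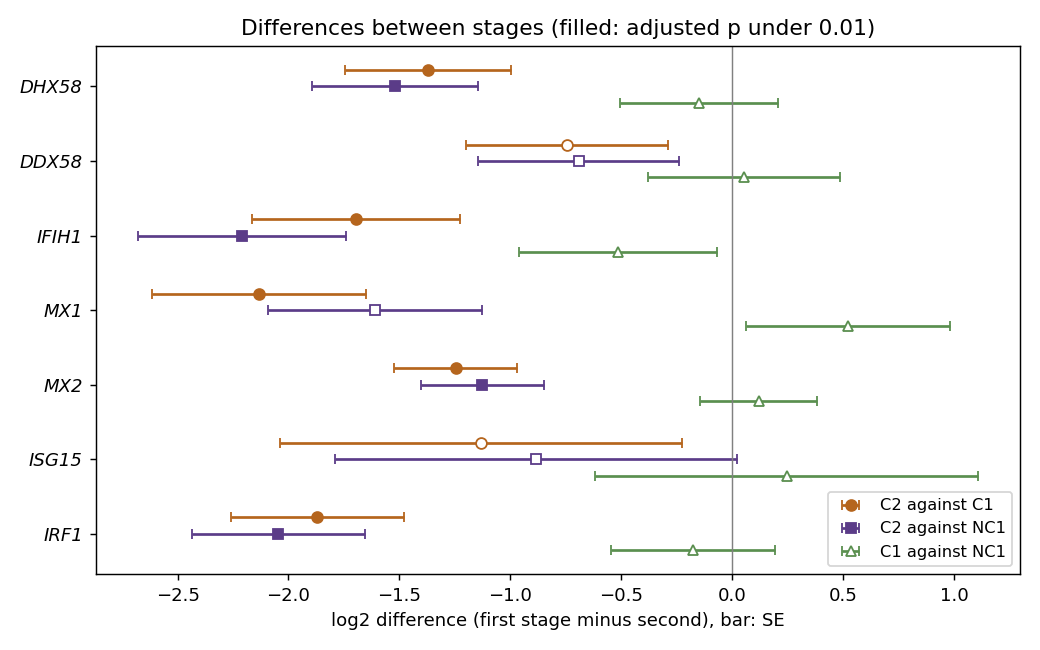
Log2 differences between stages with their SE for the 7 genes that were well above background on most NC1 and C1 arrays. Filled symbols passed the adjusted p of 0.01, for IFIH1 over the wider set of 16542 probes, which it entered through NC1 and C1. The differences of C2 against C1 and of C2 against NC1 all lie below 0, with ISG15 having the widest SE, and those of C1 against NC1 lie between -0.51 and 0.52.

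The remaining genes of the pathway did not share one direction. Lists of 153 names gave 115 genes with a probe, of which 85 had a valid probe. Of these, 14 were higher and 9 lower at C2 than at C1 (27.1%, beside 28.1% of all valid probes), and 10 were higher and 11 lower than at NC1 (24.7%, beside 28.1%). With the close C2 replicates averaged, 14 were called against C1 and 13 against NC1. No gene was called between C1 and NC1 by limma or by the one-factor test of the study's methods, and 0 and 2 genes had an unadjusted p under 0.05.

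None of the 6 interferon ligands with a probe was valid. IFNAA and IFNW1 were well above background on no array, and IFNB1, IFNG and IFNT2 on 1 C2 array each. IFNAC was well above background on 3 NC1, 6 C1 and 4 C2 arrays.

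The receptors were measured at each stage, and 1 of 6 was called in each comparison with C2 (16.7%, beside 28.1% of all valid probes). IFNGR2, a chain of the interferon gamma receptor, was higher by 1.56 against C1 (adjusted p = 0.000473) and 1.58 against NC1 (adjusted p = 0.000432), while IFNAR1, a chain of the type I receptor, differed from C1 by -0.05 (adjusted p = 0.943). The other chain of that receptor, IFNAR2, was at 1.17 against C1 (adjusted p = 0.0128) and 0.95 against NC1 (adjusted p = 0.0402), short of the threshold. Of 9 genes of the JAK-STAT list, 2 were called in each comparison (22.2%, beside 28.1%). The kinase JAK1 rose by 1.35 against C1 and 1.21 against NC1, and SOCS1, which inhibits JAK kinases, fell by 2.14 and 1.85. Among 7 other interferon regulatory factor genes, 3 were called against C1 (42.9%) and 1 against NC1 (14.3%), beside 28.1% in each. IRF8, a factor of myeloid and lymphoid cells, fell by 2.33 and 2.96, and the corepressor IRF2BP2 fell by 0.91 against C1. IRF5 rose by 1.43 against C1.

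Of 15 valid sensors, adaptors and kinases, 5 rose against C1, 4 rose against NC1, and none fell, beside 15.3% and 15.5% of all valid probes that were higher. The largest rises were TANK, an adaptor of the kinase TBK1 (2.44 against C1 and 2.38 against NC1), and RNF125, a ubiquitin ligase known to mark DDX58, IFIH1 and MAVS for breakdown (2.19 and 1.82). The adaptor AZI2 rose by 1.20 and 0.92, TRAF3, which links MAVS to the kinases, by 1.17 and 1.03, and TRAF6 by 0.64 against C1. MAVS itself was at -0.65 against C1 with an adjusted p of 0.0164, which did not pass.

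Of the 34 interferon-stimulated effectors, 4 were higher and 4 lower against C1, near the shares of all valid probes (15.3% and 12.8%). Against NC1, 3 were higher and 7 lower, beside 15.5% and 12.6%. LGALS9, a galectin (-2.08 against C1 and -2.09 against NC1), PARP9 (-1.44 and -1.49), UBE2L6, the conjugating enzyme of ISG15 (-1.37 and -0.99), and TRIM21, an antibody receptor in the cytosol (-1.30 and -1.21), were lower in both comparisons. PARP12 (-1.17), SP110 (-1.31) and PML (-0.79) were lower against NC1. IFI30, a thiol reductase of the lysosome, showed the largest rise (6.21 and 5.14), followed by the chemokine CCL5 (2.86 against C1) and NMI (2.06 and 1.93), and IFIT5 rose by 1.17 and 0.92. Of 14 genes of antigen presentation, the peptide transporter gene TAP1 (1.03 against C1) and the class II gene BOLA-DRB3 (2.21 and 2.34) were higher, and PSME1, a proteasome activator (-1.45 and -1.16), and TAPBP (-1.02 against C1) were lower. TAP2 was lower by -0.92 against NC1. Called were 4 of the 14 against C1 (28.6%) and 3 against NC1 (21.4%), beside 28.1% of all valid probes in each. BOLA-DRB3 belongs to a family of near-identical copies that a probe may not separate.

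Markers of leukocytes were called higher at C2 mainly in comparison to C1. Of 13 valid leukocyte markers, 6 were higher at C2 than at C1 (CD14, TYROBP, LCP1, NKG7, CD53 and LAPTM5) and 1 was higher than at NC1 (TYROBP), with none lower, beside 15.3% and 15.5% of all valid probes that were higher. CD2, ITGB2 and CD79A were at -0.19, -0.32 and -0.18 against C1, not called. The median difference of the 13 was 1.57 against C1 and 0.92 against NC1. Between C1 and NC1 it was -0.94, with none called. Markers outside the valid set are not in these counts. At NC1, C1 and C2 the means were -3.86, -4.68 and -0.54 for CORO1A, -1.84, -4.01 and 0.02 for CD48, and -4.46, -5.37 and -2.60 for CD3E. FCER1G (-2.09 and -2.33) and MS4A1 (-3.72 and -3.99) were lower at C2 than at C1. CD3D, ITGAM and CD79B were well above background on at most 1 array of a stage. The summed scaled signal of the 21 markers with a probe was 32.5 to 60.1 at NC1, 27.4 to 49.7 at C1 and 28.0 to 102 at C2, and CD79B was well above background on no array. Their part in the values of IFI30, CCL5, BOLA-DRB3 and the genes described first was not tested. Of 8 oocyte markers with a probe 3 were valid, and these 3 were lower at C2 than at NC1, beside 12.6% of all valid probes. None of the 3 was called between C2 and C1 or between C1 and NC1. The differences of C1 from NC1 were -1.91 (ZP3), -2.81 (GDF9) and -2.13 (NLRP5). The sum of the 8 oocyte markers with a probe was 52.8 to 124 at NC1, 5.00 to 47.5 at C1 and 3.31 to 7.80 at C2. ZP2, ZP4, BMP15 and FIGLA missed the valid set and are not in these counts. Their means fell from NC1 to C1 and again to C2, for ZP4 as 4.35, 0.02 and -4.69 and for ZP2 as 3.36, -1.36 and -5.82. DAZL, also outside the set, was well above background on 2 C1 arrays only. Of 6 valid endothelial markers, KDR, a receptor of VEGF, was higher at C2 by 3.58 against C1 (adjusted p = 1.69e-05) and 3.49 against NC1 (adjusted p = 2.23e-05), TEK fell by 1.61 against NC1 (adjusted p = 1.85e-05), and CDH5 was well above background on no array. KDR was the only 1 of the 6 called higher, beside 15.3% and 15.5% of all valid probes. The median difference of the 6 was -0.08 against C1 and -0.10 against NC1. The sum of the 8 endothelial markers with a probe was 1.84 to 3.40 at NC1, 1.68 to 2.21 at C1 and 3.33 to 11.8 at C2. Of 8 valid theca and stroma markers, LUM, a proteoglycan of connective tissue, was higher by 3.79 against C1 (adjusted p = 5.43e-06) and 3.64 against NC1 (adjusted p = 8.83e-06). It was the only 1 of the 8 called in either comparison, beside 28.1% of all valid probes in each. The median difference of the 8 was -0.27 against C1 and -0.13 against NC1. The sum of the 9 with a probe was 145 to 270.4 at NC1, 182 to 285 at C1 and 271 to 529 at C2. The part of these cells was not tested either.

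**Figure D3:**
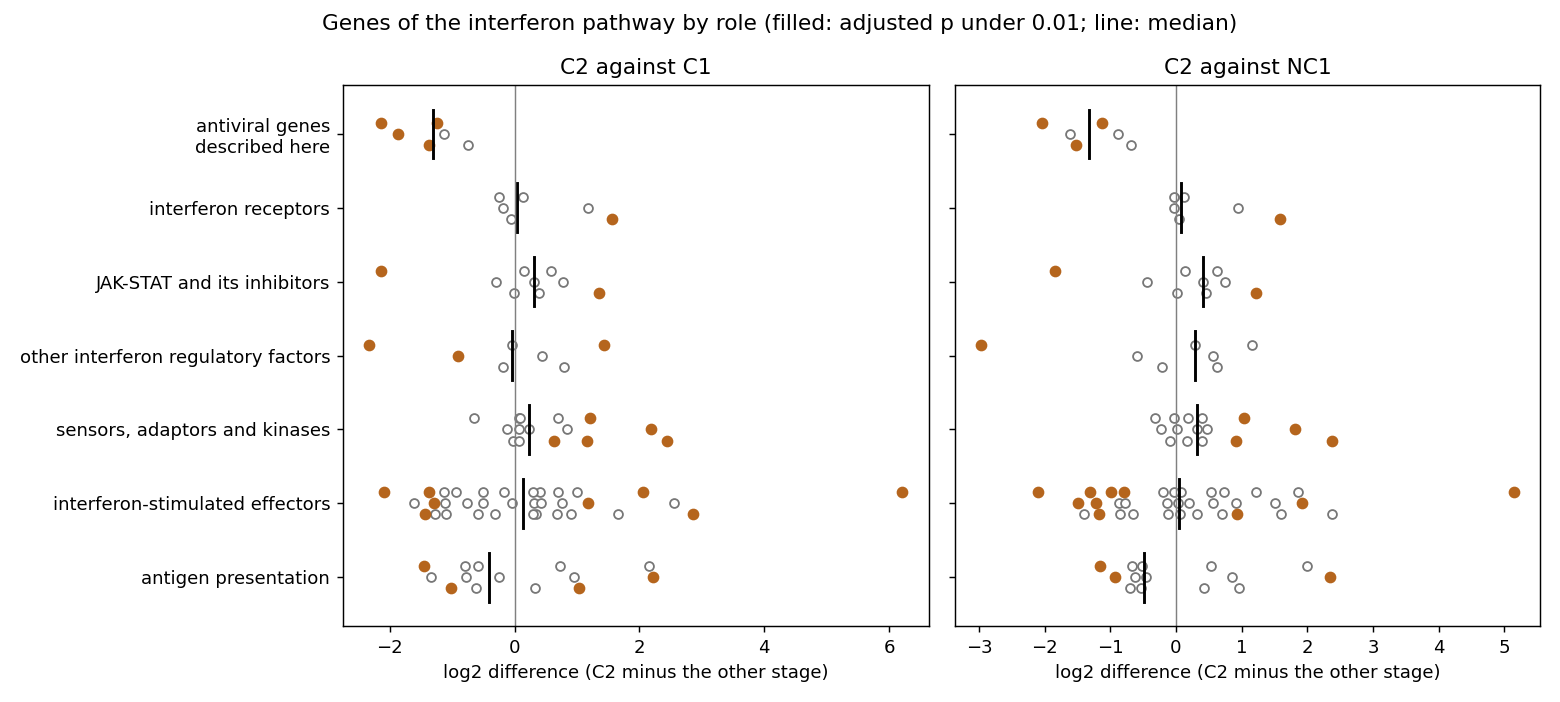
Log2 difference at C2 against C1 (left) and against NC1 (right) for the 6 valid antiviral genes and for 85 genes of the pathway by role, 1 point per gene. Filled points passed an adjusted p of 0.01 and vertical lines are medians. All 6 antiviral genes lie below 0, the called genes among sensors, adaptors and kinases lie above 0, and those among the effectors lie on both sides.

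The highest ISG15 value of each stage was on the same slide. Slide 6 carried NC1 replicate 5, C1 replicate 1 and C2 replicate 5, from 3 different animals, and ISG15, DDX58 and MX1 were highest of their stage on it at all 3 stages. For ISG15 these arrays lay 4.31, 2.71 and 2.27 above the median of the other arrays of NC1, C1 and C2. NC1 replicate 5 had the lowest median signal before scaling of the 17 arrays, 64.6 beside a median of 148 over all arrays. DHX58 and IFIH1 were also highest on slide 6 at NC1 and C1 but not at C2, and MX2 and IRF1 were not highest there at any stage. Of all valid probes, 0.721% (100 probes) were highest on slide 6 at each stage, and no gene of the group was highest at each stage on any of the other 4 slides that held all 3 stages. On the other slides the order of the ISG15 values differed between stages, as on slide 3, which held the lowest NC1 array (2.42) and the second highest C1 array (6.02). The pattern of slide 6 was noticed in the values and has no test.

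The same slide held the highest array of each stage for 10 of the 85 genes of the pathway lists. They included IRF9, the partner of the STAT factors, USP18, the protease that removes ISG15 from its targets, UBA7, its activating enzyme, and HERC6, a ligase of the same family as its ligase, as well as IFI44L, IFITM1, PARP9, TAP1, BOLA-DRA and BOLA-DRB3. Over the 34 valid effectors, the median of the slide 6 array minus the median of the other arrays of its stage was 0.64 at NC1, 1.28 at C1 and 0.40 at C2, and 27, 33 and 27 of the 34 genes were above. The same measure over all valid probes was 0.19, -0.06 and 0.02. The leukocyte sum of the slide 6 array was the highest at NC1 (60.1) and C2 (102) and the third at C1 (38.1). Other marker sums were also highest on it, at NC1 those of endothelial (3.40) and of granulosa and cumulus markers (9023). At C2 those of oocyte markers (7.80) and cumulus expansion genes (1494) were. The theca and stroma sum was the lowest of its stage on it at NC1 and C2, and the expansion sum at NC1. CSF1R and LAPTM5 were the 2 of 13 leukocyte markers highest on it at each stage. The part of the slide, of the animals and of leukocytes in this pattern was not tested.

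**Figure D4:**
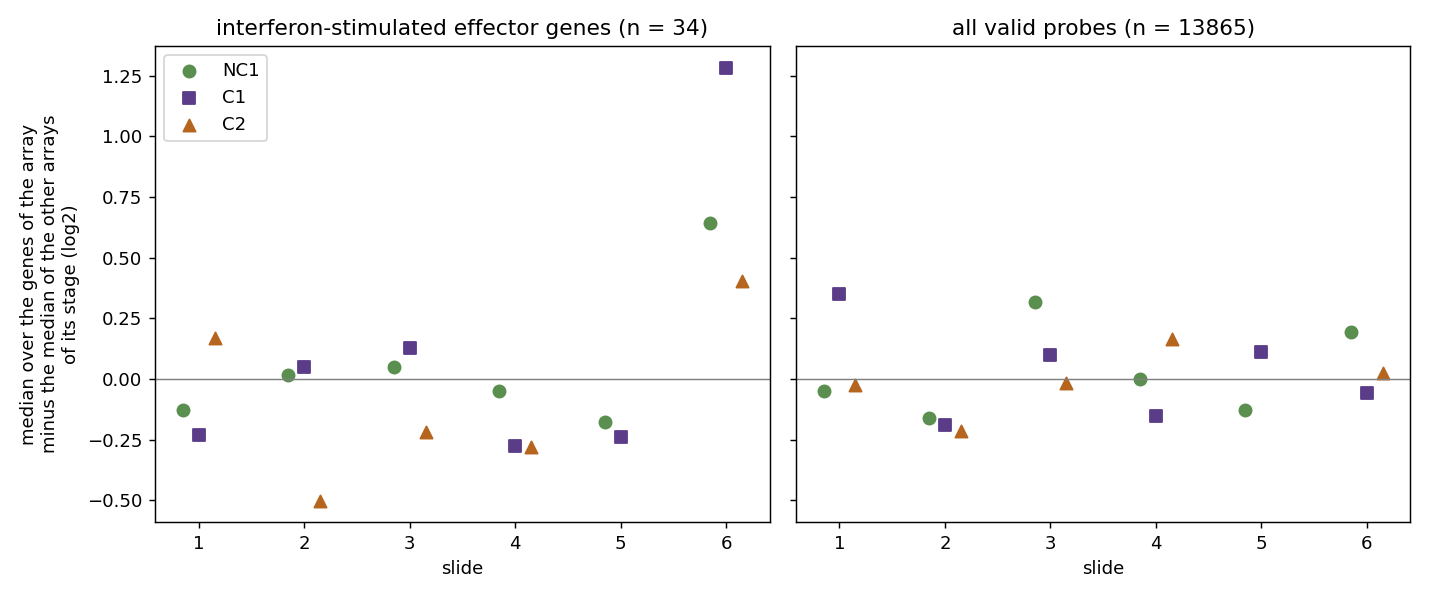
For each array, the median over 34 interferon-stimulated effector genes (left) or all 13865 valid probes (right) of its log2 scaled signal minus the median of the other arrays of its stage, by slide. The 3 arrays of slide 6 lie at 0.64, 1.28 and 0.40 for the effectors, above the other arrays of their stage, and at 0.19, -0.06 and 0.02 for all valid probes.

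Genes most like each member were sought among 11583 valid probes with a gene symbol, by Pearson's r over the 17 arrays after the mean of each stage was subtracted. All values come from the same arrays, so that array quality, cell composition and animal are shared, and r is given as a description. DHX58 was closest to GZMA, a granule protease of cytotoxic lymphocytes (0.82), the effectors TRIM21 (0.81) and PARP12 (0.80), GNG2 (0.77) and KPNA6 (0.76). Without slide 6 the r with GZMA was 0.84 and with TRIM21 0.69. ISG15 was closest to HERC6 (0.92), USP18 (0.91) and UBA7 (0.89), all 3 of the conjugation system of ISG15 or related to it, and without slide 6 these were 0.84, 0.87 and 0.80.

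The nearest genes of the others were not in the pathway lists. MX1 was closest to MYLK2 (0.94), FAP (0.92) and ART1 (0.91), and MX2 to LIPG (0.81), CELF4 (0.80) and MS4A18 (0.78). IRF1 was closest to PNRC1 (0.89), CCNL1 (0.89) and RNF19B (0.87), and DDX58 to MYO15A (0.92), SLIT1 (0.88) and ZBTB39 (0.86). For DDX58 the first fell to 0.56 and the last to 0.27 without slide 6. Among the 15 pairs of the 6 valid genes, ISG15 with MX1 (0.76), ISG15 with DDX58 (0.72) and DHX58 with MX1 (0.70) were the highest. Without slide 6 these were 0.60, 0.33 and 0.61. IRF1 gave negative values with MX1 (-0.56), DDX58 (-0.46), DHX58 (-0.39) and ISG15 (-0.37), and without slide 6 these were -0.49, -0.37, -0.30 and -0.18. With MX2 it gave 0.37, or 0.31 without slide 6. MX1 and MX2 gave -0.30, or -0.27 without slide 6, and DDX58 and MX2 gave -0.40, or -0.57.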

How the data were processed

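Samples were grouped by the stage in their labels into NC1 (n = 6), C1 (n = 6) and C2 (n = 5), each from 1 animal per the methods of the study. The genes and lists were chosen with earlier results of these data known. The authors deposited linear intensity values per spot from Agilent Feature Extraction 10.5.1.1 (background-subtracted and detrended). They also deposited a table of log2 values scaled by the array median, with the probe sequences. After a constant shift per array, 99% of its values were the same as those used here to within 2.03e-06.

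For each probe the mean log2 of the processed signal was taken, without non-uniform and outlier spots, and the median of each array over non-control probes was subtracted. Presence on an array required that 50% or more of a probe's spots be uniform, well above background and not saturated. No spot was saturated, and the number of arrays limits the precision. The 3 stages were fitted together in limma 3.58.1 (R 4.3.3), with Benjamini-Hochberg adjustment over 13865 valid probes and a threshold of 0.01. IFIH1 was tested over 16542 probes and OAS1 over all 21475. The fit was also run on simulated arrays, drawn independently with a spread common to all stages. They lack the close pairs and the wider spread of the C2 arrays, so this cannot check calls that depend on those. Exact permutation tests ran over every regrouping of the arrays and were 2-sided by doubling the smaller tail (numpy 2.4.6). Each gene of the group and, per list and comparison, up to 3 rises and 3 falls that passed were named. IFNAR1, IFNAR2, MAVS, TRAF6, TRIM21, PARP12, PML and the marker and slide 6 genes were named after their values were seen. A pathway gene was read from its brightest valid probe. Symbols came from RefSeq (ARS-UCD2.0) by accession (3524 probes) or gene ID (9987 probes). Slides and scan days were taken from the scanner headers. Alternatives were scaling, background correction, filters, tests, blocks, averaged or left-out arrays and the threshold, and slide 6 was left out after seeing the data.

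Same-numbered samples were not paired. Their deviations correlated with r between -0.32 and 0.25 over 16 pairs (median -0.07), and the methods describe different animals.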

Additional observations from a re-analysis of the deposited data

Results flagged for a closer look

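Of 24 tests of a gene at a stage, 3 set the highest array apart from the others by more than Dixon's 95% critical value, and chance flags about 1 in 20 such groups. All 3 were C1 replicate 1, on slide 6. DDX58 was 4.43 there, beside 2.50 to 3.14 on the other 5 C1 arrays. IFIH1 was -0.46, beside -3.56 to -2.76. OAS1 was -2.94, beside -5.59 to -4.82, and this was the 1 array on which it was well above background. The 3 flags come from the same array and are not independent of each other.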

How the results depend on the processing

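Against C1, the 4 genes called became 2 with the normexp background correction (MX1 and IRF1) and 2 with slide 6 left out (MX1 and IRF1), and 3 to 4 when each array was left out in turn. Against NC1, the 3 became 1 with normexp (IRF1) and 1 with the close C2 replicates averaged (IRF1), and 2 to 4 with each array left out. Of the 85 pathway genes, 23 were called against C1, 14 with the close C2 replicates averaged, 41 at a threshold of 0.05 and 18 to 29 with each array left out. Against NC1 the 21 became 13 with a separate spread per stage, 13 with the close C2 replicates averaged, 34 at 0.05 and 13 to 29 with each array left out (13 without C2 replicate 4). Between C1 and NC1 both counts were 0 to 0 with each array left out and 0 under the other alternatives. The cause of these changes was not tested. The 7 genes other than OAS1 stayed below 0 at C2 under all alternatives run. Single values kept their side of the threshold in 623 cases, lost a call in 43 and gained one in 9. The DHX58 call against C1 was also lost without any 1 of C1 replicates 1, 2, 4 and 5 and C2 replicates 1, 3, 4 and 5, by -1.13 to -1.39 (adjusted p up to 0.0228). MX1 against NC1 passed without NC1 replicate 3 or 4, C2 replicate 2 or 5, or slide 6. The MX2 call against NC1 was lost without C2 replicate 1 or 5. The IFIH1 difference from C1 lay near the threshold and missed it without any 1 of 10 arrays, without slide 6 and with normexp, quantile normalization and the one-factor test. IFIH1 was not fitted with the close C2 replicates averaged, with array weights or with a separate spread per stage.

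With the replicate number as a block, 4 genes were called against C1, 4 against NC1 (MX1 was added, at -1.68 with an adjusted p of 0.00325) and 0 between C1 and NC1, and the pathway counts were 22, 17 and 0. IFIH1 against C1 missed the threshold (adjusted p = 0.0171). Of the 17 arrays, 1 correlated best with its own number. A mean over the valid probes of a gene changes nothing by construction, since each gene of the group has 1 probe.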
